A study of Mus musculus with 16 samples.

Results

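The subject is a set of 46 splicing factors: proteins that recognise introns, build the spliceosome or steer alternative exons, among them WTAP, U2AF2 and RBM4, which are known binding partners of WT1. Members were taken by gene symbol or older synonym from 2 deposited tables of the same arrays, a gene-level table of 93623 transcript clusters and an exon-level table of 375483 probe sets. A transcript cluster sums up the probes of a locus and a probe set covers about an exon or a part of one. Of the 46 factors, 41 had a cluster with a single symbol, 44 had probe sets, and all 46 had one or the other. They filled 63 clusters and 699 probe sets. The clusters of U2af1, Sf3a1, Srsf7, Tra2a and Hnrnpa1 carried several symbols or none, and Wtap and Tra2b had no probe set under their own symbol.

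The study compared 4 RNA samples from wt1(+KTS) mutant embryos, named Frasier after the human syndrome, with 4 from wild-type embryos at stage E18.5, shortly before birth, all on a C57Bl6 x DBA2 mixed background. Glomeruli, the filters of the kidney, were collected with magnetic beads after perfusion, and their RNA was hybridised to Affymetrix exon arrays. Whether the mutants were heterozygous or homozygous, the sex and litter of the embryos, and whether each array held 1 embryo are not stated in the labels. The question was whether splicing factors differ in level, or in the use of their own exons, when the +KTS form of WT1 is altered.

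WT1 is a zinc finger protein of podocytes, and alternative splicing adds or omits the amino acids KTS between its last zinc fingers. The form without KTS binds DNA and acts on transcription, while the form with it binds RNA, lies in nuclear speckles and associates with splicing proteins. Splicing itself starts when U1 marks the 5′ splice site and SF1, U2AF and then the SF3 complexes of U2 mark the branch point and 3′ splice site, and SR proteins and hnRNPs bind exons and introns nearby and raise or lower the use of each site.

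Values are log2 signals, and every difference is Frasier minus wild type. A factor or probe set is said to be called, to have risen or to have fallen where limma's adjusted p, over all rows of the table, was at or below 0.05. Each gene is represented by its cluster of highest mean, and signals of different genes are not compared because their probes differ. Wt1 itself stood at 8.77, 8.86, 9.02 and 8.97 in Frasier arrays, against 9.09, 8.95, 9.04 and 8.97 in wild-type arrays, and was not called (−0.11, adjusted p = 0.701). None of its 20 probe sets was called, and none is known here to cover the KTS insert, so this does not check the genotype. Podocyte markers were present in every array and 6 of 7 were lower in Frasier glomeruli, 2 of them called. Their mean level was 8.12 to 8.32 in Frasier arrays and 8.64 to 8.84 in wild-type arrays. Such a drop was not particular to podocytes. All 9 glomerular endothelium genes were lower (1 called, mean level 8.83 to 8.90 against 9.19 to 9.36), as were all 7 leukocyte genes (0 called). Of 7 mesangium and renin cell genes, 4 were lower and 3 higher, with 0 called. Tubular genes were also detected, so the preparations held more than glomeruli, and in such bulk RNA fewer cells of a type and less RNA per cell cannot be told apart.

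No splicing factor was called at the gene level. This was 0 of 41, against 0.827% of all clusters and 1.45% of all genes. By unadjusted p under 0.05 there were 3, Esrp1, Sf3b4 and Srsf10, all higher in Frasier arrays, where 16.6% of all genes had such a p. The Frasier and wild-type arrays did not overlap for 5 factors, Srsf10, Prpf8, Sf3b3, Esrp1 and Ptbp2, all higher in Frasier arrays, against 17.5% of all genes. Differences ran from −0.32 for Srsf5 to 0.52 for Sf3b4. The median was 0.09 with 26 of 41 positive, where all genes had a median of 0.03 with 56.6% positive. Counts of probe sets below stand beside 2.67% called, 13% without overlap and 51.1% positive over all probe sets, and 3.57%, 17.1% and 60.2% over those with 1 symbol.

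**Figure D1:**
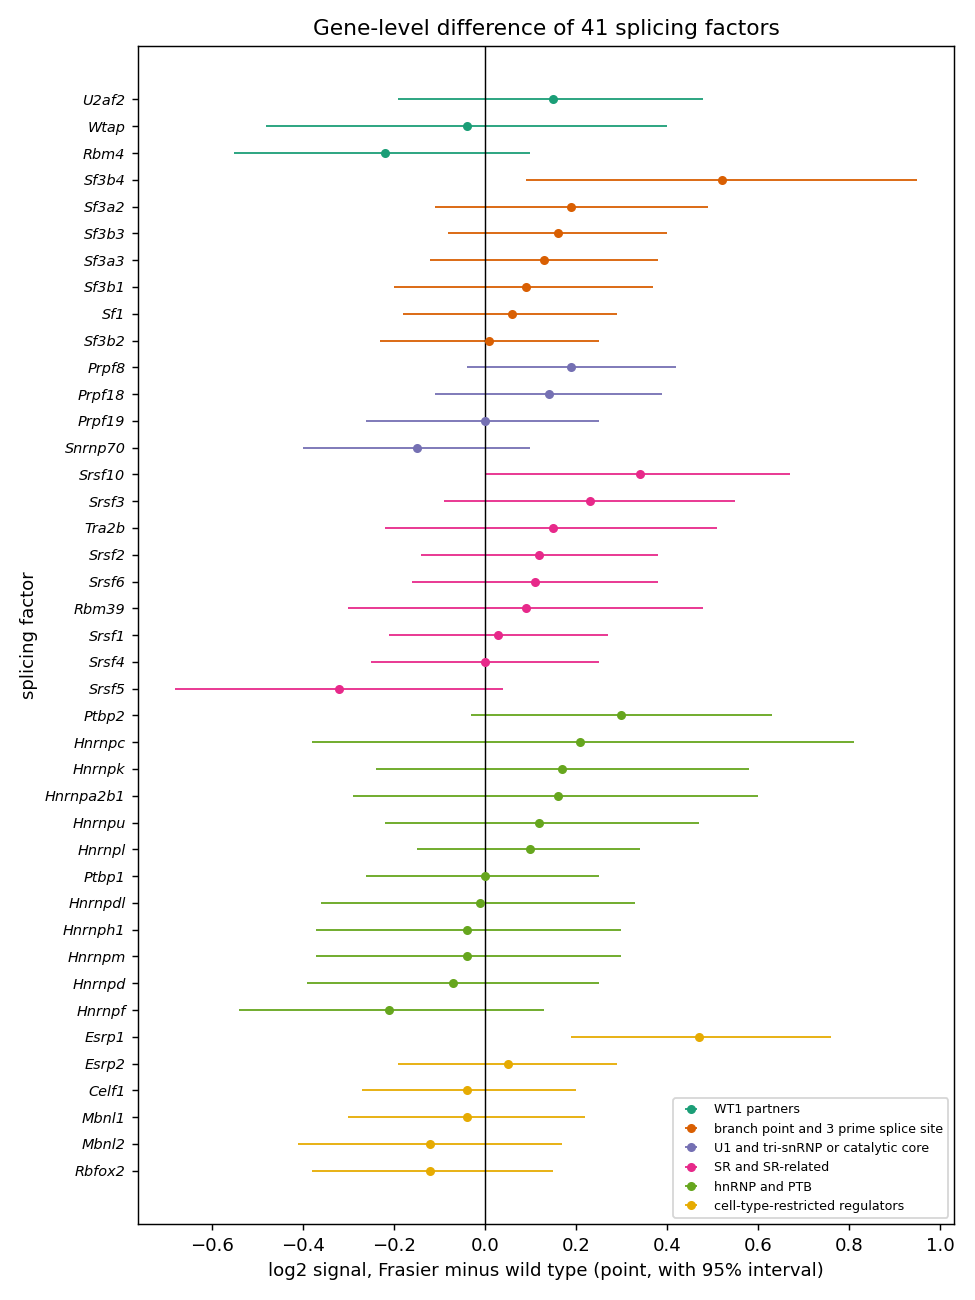
Gene-level difference of each of the 41 splicing factors, Frasier minus wild type on the log2 scale (n = 4 arrays each), with its 95% interval and coloured by role. The intervals of Sf3b4, Esrp1 and Srsf10 lie at or above 0, and Srsf5 has the most negative difference, −0.32.

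One wild-type array stood apart for these genes. Wild type replicate 4 was the lowest of the 8 arrays for 31 of 41 factors (75.6%), against 28.9% of all genes. Its median deviation from a factor's middle value was −0.25, against −0.03 over all genes, and its correlation with the other arrays was 0.869 to 0.918. Without it the members' median difference was −0.02 with 16 of 41 positive, while that of all genes stayed at 0.03 with 57.3% positive. The positive median of the factors therefore changed sign without this array. Among the 699 member probe sets, this array was the lowest for 45.4%, against 30.1% of all 1-symbol probe sets. How far it raised the counts of positive probe sets given below was not tested.

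**Figure D2:**
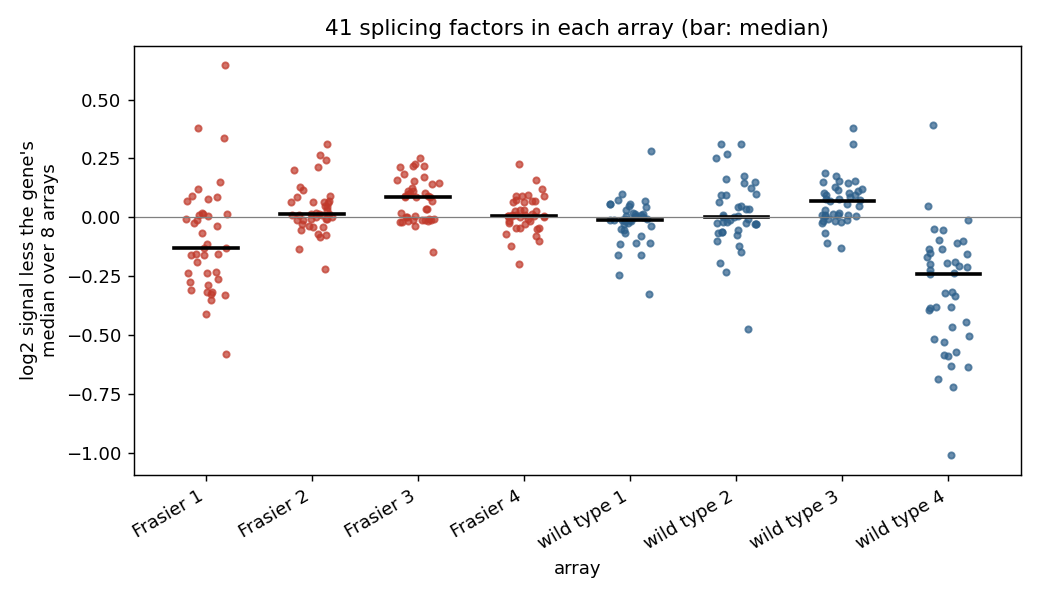
Log2 signal of the 41 splicing factors in each array, less the gene's median over the 8 arrays (points), with the array's median as a bar. Wild type replicate 4 has the lowest bar, at −0.25, followed by Frasier replicate 1 at −0.13, and the other arrays lie between −0.01 and 0.08.

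The WT1 partners come first. Wtap encodes a scaffold of the complex that methylates adenosines in mRNA and was first found through its binding to WT1. It stood at 8.65, 8.98, 8.98 and 9.07 in Frasier arrays, against 8.97, 9.29, 9.17 and 8.41 in wild-type arrays. The groups overlapped fully, with the highest and the lowest value both in wild type, and the difference was −0.04 ± 0.196 (SE, adjusted p = 0.945). That lowest value is wild type replicate 4, and without it the difference was −0.22 (adjusted p = 0.537). A dimmer second cluster of Wtap differed by −0.11 (adjusted p = 0.855).

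U2af2 encodes the large subunit of U2AF, which binds the polypyrimidine tract at the 3′ splice site. Its signal was 8.73, 9.01, 9.05 and 9.19 in Frasier arrays, against 8.95, 8.94, 8.98 and 8.52 in wild-type arrays. The difference of 0.15 ± 0.149 (SE, adjusted p = 0.700) was 0.04 without wild type replicate 4. Its 3 other clusters differed by −0.15, 0.30 and 0.08, none called, and its 4 probe sets by −0.23 to 0.44, 2 of them positive. These clusters and probe sets thus gave no common direction.

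Rbm4 encodes an RNA-binding protein that steers alternative splicing and translation. It had 7.54, 7.82, 7.99 and 7.65 in Frasier arrays, against 7.88, 8.12, 8.16 and 7.74 in wild-type arrays. The Frasier values lay lower on average but overlapped the wild-type ones (−0.22 ± 0.146 SE, 95% interval −0.55 to 0.10, adjusted p = 0.532). All 6 of its probe sets had negative differences, from −0.71 to −0.01, and none was called. Of these, probe set 4575116 differed most, with 6.29, 6.88, 6.88 and 6.42 in Frasier arrays and 7.16, 7.63, 7.57 and 6.97 in wild-type arrays (adjusted p = 0.0975), and its groups did not overlap. Probe sets of a gene come from the same arrays as its cluster, and are not independent of the cluster or of each other.

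At the branch point and 3′ splice site, 7 of 9 listed factors had a cluster, and all 7 differences were positive, from 0.01 to 0.52, with 0 called. Of all genes 56.6% were positive. The shared sign rests on wild type replicate 4: without it Sf3b2 was −0.03 and Sf3b1 −0.00. Sf3b4, a subunit of the SF3b complex of U2, had the highest, with 7.25, 6.60, 6.82 and 6.61 in Frasier arrays, against 6.28, 6.13, 6.71 and 6.09 in wild-type arrays. Frasier values were higher apart from 1 overlapping wild-type array (0.52 ± 0.191 SE, 1.43-fold, adjusted p = 0.264). The difference was 0.37 without Frasier replicate 1, the highest array, and 0.45 without wild type replicate 4. The 2 probe sets of Sf3b4 differed by 0.51 and 0.53, without a call. The dimmer of them had a mean level of 5.08, under the median of 6.81 over all probe sets. The mean of these 2 probe sets equals the cluster's value in each array, so they are not separate evidence. The same holds for the probe sets of Sf3a2 and Sf3a3. Sf3b3, the subunit of SF3b with a propeller fold, had 9.54, 9.59, 9.71 and 9.55 in Frasier arrays, against 9.49, 9.46, 9.51 and 9.30 in wild-type arrays. These groups were apart but by little (0.16 ± 0.107 SE, adjusted p = 0.553), and the difference was 0.11 without wild type replicate 4.

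Sf3b1, which holds the branch point and is often mutated in human blood disorders, differed by 0.09 (adjusted p = 0.800), and Sf3b2 by 0.01 (adjusted p = 0.978). Over the probe sets of this role group, 108 of 151 were positive, against 60.2% of all 1-symbol probe sets, and 2 were called, 1 higher and 1 lower, against 3.57% of them. Both are described with exon usage below.

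In the U1 and catalytic core group, with 4 factors, Prpf8, the protein at the heart of the spliceosome, was 11.00, 10.98, 11.07 and 10.94 in Frasier arrays, against 10.85, 10.77, 10.89 and 10.71 in wild-type arrays. All Frasier values lay above all wild-type values, yet the difference was small (0.19 ± 0.103 SE, adjusted p = 0.439). Of its 47 probe sets 42 were positive and 21 did not overlap, against 60.2% and 17.1% of all 1-symbol probe sets, and 1 rose, against 3.57% called. That probe set, 4602228, had 11.32, 10.88, 11.12 and 11.02 in Frasier arrays, against 10.33, 10.46, 10.63 and 10.36 in wild-type arrays (0.64 ± 0.140 SE, adjusted p = 0.0457), and it kept its call in 1 of 8 fits that left out an array. Snrnp70, a protein of U1, went the other way in sign (−0.15, adjusted p = 0.595), and 15 of its 24 probe sets were negative.

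Of the SR proteins, which bind exonic enhancers, and their relatives, 9 of 11 had a cluster, 8 of them positive and 0 called. Of all genes 56.6% were positive. Without wild type replicate 4 the sign of Srsf1 turned, to −0.03. Srsf10, a repressor of splicing when dephosphorylated, had 8.59, 8.67, 8.49 and 8.59 in Frasier arrays, against 8.36, 8.35, 8.45 and 7.84 in wild-type arrays. The groups did not overlap (0.34 ± 0.148 SE, 1.26-fold, adjusted p = 0.346), and the difference was 0.20 without wild type replicate 4, the lowest array. All 14 of its probe sets were positive, from 0.07 to 0.93, and none was called. With all arrays, Srsf5 was the only factor of these 9 with a negative difference. It had 9.50, 9.92, 9.90 and 9.83 in Frasier arrays, against 10.19, 10.22, 10.29 and 9.71 in wild-type arrays. Apart from wild type replicate 4, every wild-type value lay above every Frasier value. The difference of −0.32 ± 0.162 (SE, adjusted p = 0.413) was −0.45 without that array (adjusted p = 0.189), and 11 of its 12 probe sets were negative, with 0 called.

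Srsf1, the founding SR protein, differed by 0.03 (95% interval −0.21 to 0.27). The 6 probe sets that carry the old symbol Sfrs10, a synonym the annotation gives to both Srsf2 and Tra2b, were all positive, from 0.09 to 0.77, with 0 called, and are not counted with either gene.

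The hnRNPs and PTB proteins, which mostly bind introns and silencers, had 12 of 13 factors with a cluster, 6 positive and 6 negative. Ptbp2, the PTB paralog best known from neurons, had 9.96, 10.19, 10.07 and 10.02 in Frasier arrays, against 9.83, 9.92, 9.93 and 9.36 in wild-type arrays. The groups lay just apart (0.30 ± 0.149 SE, 1.23-fold, adjusted p = 0.401), and the difference was 0.17 without wild type replicate 4. Of its 21 probe sets, 20 were positive and 2 rose, against 60.2% positive and 3.57% called of all 1-symbol probe sets. Probe set 5250369 had 8.79, 8.94, 8.85 and 8.72 in Frasier arrays, against 8.07, 7.95, 8.25 and 7.62 in wild-type arrays (0.85 ± 0.154 SE, adjusted p = 0.0234), and probe set 5348841 rose by 0.65 (adjusted p = 0.0477). Leaving out 1 array at a time, these kept their calls in 3 and 1 of 8 fits.

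Hnrnpf, which binds runs of guanines, had 10.06, 10.42, 10.40 and 10.44 in Frasier arrays, against 10.40, 10.66, 10.28 and 10.80 in wild-type arrays. The groups overlapped (−0.21, adjusted p = 0.580), and the difference was −0.12 without wild type replicate 4. Its dimmer clusters differed by 0.30 and −0.42 and its 1 probe set, of mean level 6.05, by 0.12, none called. Whether these clusters lie at the gene itself was not checked. The main cluster of Ptbp1, the general PTB protein, differed by less than 0.005 in size, while a second cluster, 7002602, named after its values were seen, had 8.02, 7.58, 7.72 and 7.46 in Frasier arrays and 6.96, 7.15, 7.29 and 7.06 in wild-type arrays. Its groups did not overlap, without a call (0.58 ± 0.147 SE, adjusted p = 0.120), and 6 of the gene's 11 probe sets were positive, from −0.33 to 0.52.

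The promoter of Ptbp2, the hnRNP or PTB gene with called probe sets, is shown because WT1 without KTS and the EGR and Sp1 factors bind GC-rich sites. It spans 250 bases before to 50 after the annotated start (RefSeq, GRCm38.p6, chr3:119783339-119783638, minus strand, 5′ to 3′), and capitals mark GGGCGG, the GC box, on either strand, which it holds 6 times:
Ptbp2: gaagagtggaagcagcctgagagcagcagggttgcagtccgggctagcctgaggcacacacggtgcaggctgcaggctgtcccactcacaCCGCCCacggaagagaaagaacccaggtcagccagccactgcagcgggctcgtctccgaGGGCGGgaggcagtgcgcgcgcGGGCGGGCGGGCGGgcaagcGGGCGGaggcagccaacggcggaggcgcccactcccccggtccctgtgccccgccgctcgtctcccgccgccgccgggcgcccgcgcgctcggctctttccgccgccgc
The GC box occurred in 28 of the 40 members with a promoter entry (70%) and in 38.2% of 27025 genes with one. The EGR and WT1 type motif GCGGGGGCG, on either strand, occurred in 3 of 40 members (7.5%), against 3.31% of all genes, and the related GCGTGGGAG in 1 (2.5%), against 0.544%. The GGGCGG and GCGGGGGCG motifs share bases and can overlap. The printed Ptbp2 promoter held 0 matches of GCGGGGGCG and 0 of GCGTGGGAG. The genes compared with were not matched to the members in signal or base content. Whether the shares differ beyond that was not tested. The 4 matches of the longer motifs are shown with 10 bases on each side, on the strand of the gene, with the motif or its reverse complement in capitals:
Hnrnpf (chr6:117917242-117917270, plus): tcccatccccCGCCCCCGCccggaagctc
Srsf4 (chr4:131873525-131873553, plus): agtaaagcccCGCCCCCGCccctgaccag
U2af1 (chr17:31658823-31658851, minus): ctcttcgtccCGCCCCCGCgctggcagca
Mbnl1 (chr3:60501141-60501169, plus): ccggggctgcGCGTGGGAGctctgcgcgt
None of these 4 genes was called: Hnrnpf differed by −0.21, Srsf4 by 0.00 and Mbnl1 by −0.04 at the gene level, and the 5 probe sets of U2af1 by −0.28 to 0.30. A match is only a run of letters, and no binding was measured.

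A last group, labelled cell-type-restricted regulators, holds Rbfox2, Mbnl1, Mbnl2, Celf1, Esrp1 and Esrp2. The label is only a name, and whether each is restricted to a cell type was not tested. The gene of lowest p among them was Esrp1, which drives the epithelial pattern of exon choice. At the gene level Esrp1 had 7.85, 7.78, 7.74 and 7.58 in Frasier arrays, against 7.27, 7.32, 7.45 and 7.01 in wild-type arrays. Every Frasier array was above every wild-type array (0.47 ± 0.128 SE, 1.39-fold, 95% interval 0.19 to 0.76), without a call over all clusters (adjusted p = 0.142), and the difference was 0.39 without wild type replicate 4. When the mean of its probe sets was tested in place of the cluster, Esrp1 was the 1 member called (0.69, 1.62-fold, adjusted p = 0.0062), in a fit that called 11.4% of all genes. It was also called when rows with 1 symbol alone were tested (0.47, adjusted p = 0.0316), where 6.8% of rows were called.

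At the exon level 12 of the 699 member probe sets were called, 11 higher and 1 lower, against 2.67% of all probe sets (1.46% higher and 1.21% lower) and 3.57% of those with 1 symbol. Positive differences made up 456 of the 699 (65.2%), against the 60.2% given above. This count includes wild type replicate 4, the lowest array for 45.4% of the 699. Of the 12, 7 were of Esrp1, and without that gene 5 of 680 remained. Genotypes did not overlap in 122 of the 699, against 13% of all probe sets and 17.1% of those with 1 symbol. Of the 19 Esrp1 probe sets, 18 were positive, 15 did not overlap and differences ran from −0.03 to 1.21. The lowest p was that of probe set 4995012, with 6.73, 6.79, 6.53 and 6.34 in Frasier arrays, against 5.45, 5.48, 5.72 and 5.49 in wild-type arrays. These groups were well apart (1.06 ± 0.143 SE, adjusted p = 0.00679), and the call was kept in all 8 fits that left out an array. This probe set is dim: its mean over the 8 arrays was 6.06, under the table's median of 6.81, so it was not in the fit without dim rows.

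A brighter probe set, 5183951, had 10.38, 10.42, 10.39 and 10.03 in Frasier arrays, against 9.29, 9.40, 9.57 and 8.44 in wild-type arrays (1.13, adjusted p = 0.0379). The other called ones rose by 0.59 to 0.89, and each of these 6 lost its call in 5 to 7 of the 8 fits without an array. Relative to the mean of the gene, 0 of 13 Esrp1 probe sets was called, with differences from −0.41 to 0.47. The paralog Esrp2 was not called (0.05 at the gene level, adjusted p = 0.873). Its 20 probe sets ranged from −0.43 to 0.96, 15 of them positive and 0 called.

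**Figure D3:**
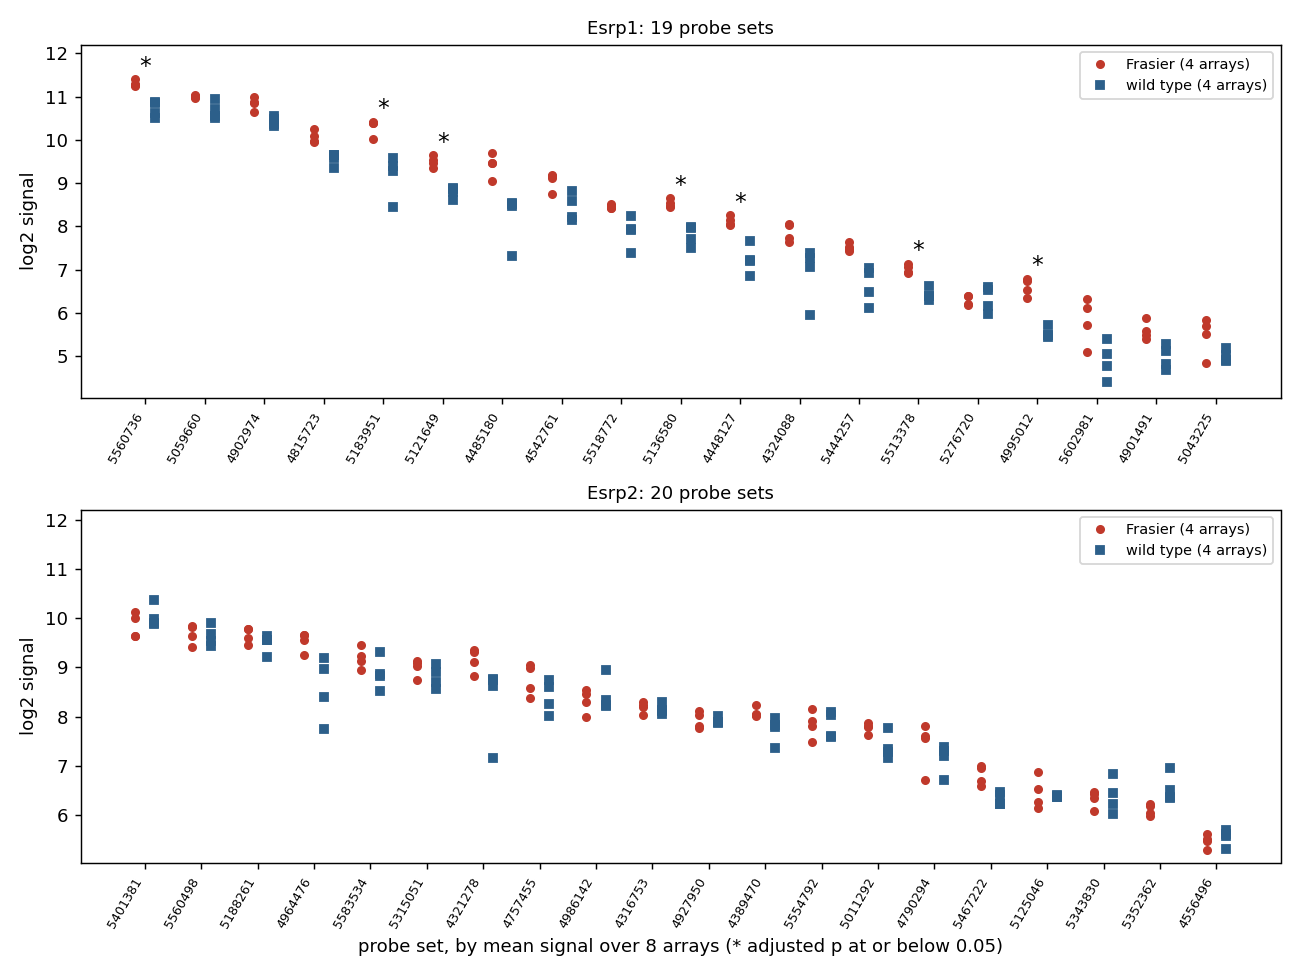
Log2 signal of each array at the 19 probe sets of Esrp1 (top) and the 20 of Esrp2 (bottom), Frasier arrays left of wild-type arrays, with a star at an adjusted p at or below 0.05. At Esrp1, 7 probe sets have a star and 15 have no overlap between the genotypes, and at Esrp2 none has a star.

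Some markers of other epithelia were higher in the same arrays as Esrp1. Of 13 tubular and collecting duct genes, 8 had positive differences, 5 negative ones, and 4 rose: Cldn3 (1.47), Krt19 (1.30), Cldn4 (1.03) and Cldn7 (0.92), which encode claudins of tight junctions and a keratin. The mean level of the list was 8.78 to 9.13 in Frasier arrays and 8.49 to 8.74 in wild-type arrays. Other genes of the same list were not called, among them Umod (−0.41), Slc12a1 (−0.21), Aqp2 (−0.22) and Epcam (0.07). Nephron progenitor genes were higher too, with 5 of 8 called and a mean level of 8.08 to 8.27 in Frasier arrays and 7.43 to 7.57 in wild-type arrays. Proximal tubule genes were lower, with 5 of 9 called and 8.20 to 8.55 in Frasier arrays and 9.04 to 9.24 in wild-type arrays. The part of these cell types in the Esrp1 difference was not tested.

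**Figure D4:**
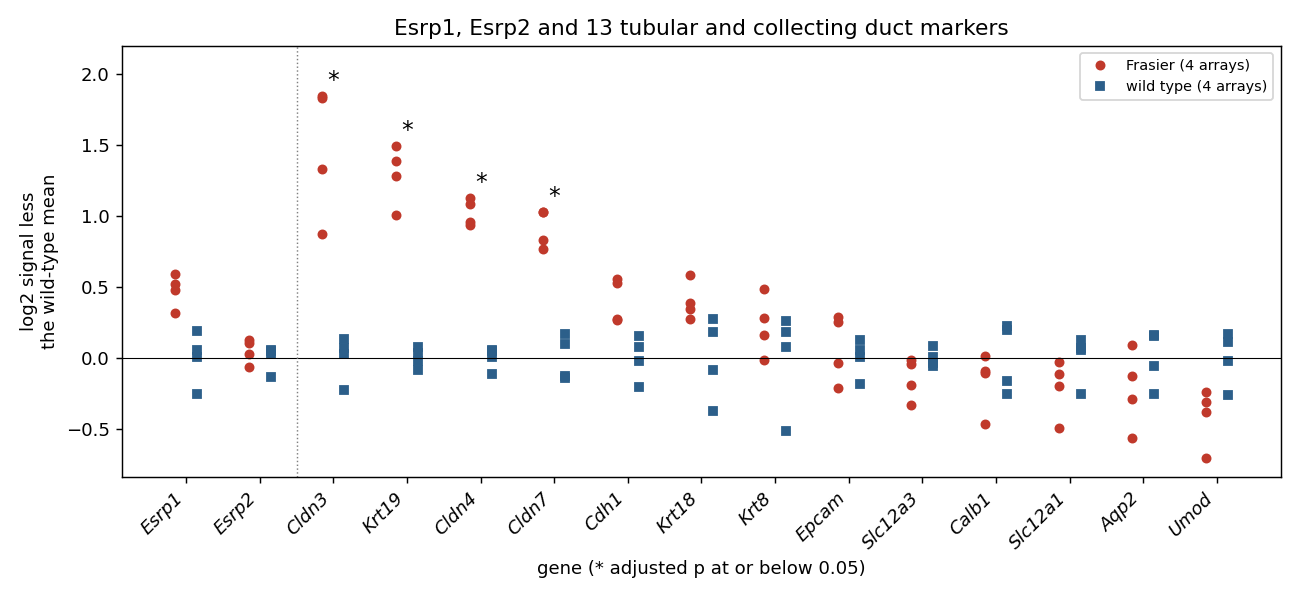
Gene-level log2 signal of Esrp1, Esrp2 and 13 tubular and collecting duct markers in each array, less the gene's wild-type mean, Frasier arrays left of wild-type arrays, with a star at an adjusted p at or below 0.05. Cldn3, Krt19, Cldn4 and Cldn7 have stars, and Esrp1 lies above wild type in all 4 Frasier arrays.

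The other regulators of this group had small gene-level differences without a call. Rbfox2, a regulator that binds UGCAUG in introns, had 8.24, 8.50, 8.54 and 8.57 in Frasier arrays, against 8.60, 8.65, 8.65 and 8.42 in wild-type arrays (−0.12 ± 0.120 SE, adjusted p = 0.707), with 8 of 20 probe sets positive. The Rbfox2 difference was −0.04 without Frasier replicate 1, its lowest array, and −0.00 with the mean of its probe sets. Celf1, Mbnl1 and Mbnl2 had gene-level differences of −0.04, −0.04 and −0.12. None of their probe sets was called.

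Exon usage asks whether a probe set departs from the mean of its gene within the same array, so that a change of the whole gene drops out. It was tested for 630 probe sets of 40 members, those with 1 symbol, a mean signal over the 8 arrays at or above the table's median of 6.81 and at least 3 such probe sets in the gene. Of the 630, 5 were called, 1 higher and 4 lower, against 0.513% of the 128589 probe sets tested (0.241% higher and 0.272% lower). The 5 lie in Sf3b2, Sf3b3 and Srsf1. The 1 higher call, in Sf3b3, passed the filter only through its Frasier arrays, so this count is a description too. None of the 9 tested probe sets of U2af2 and Rbm4 was called, and Wtap had none to test.

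In Sf3b2, the SF3b subunit that contacts the intron next to the branch point, a single probe set fell. Probe set 4821640 had 7.54, 7.21, 7.67 and 8.24 in Frasier arrays, against 9.11, 9.33, 9.24 and 9.40 in wild-type arrays. The lowest wild-type array lay well above the highest Frasier array. Relative to the gene it stood at −1.81, −1.96, −1.68 and −1.06 in Frasier arrays, against −0.22, 0.12, −0.14 and 0.15 in wild-type arrays, a usage difference of −1.61 ± 0.185 (SE, 3.05-fold lower, adjusted p = 0.0123). The call was kept in all 8 fits without an array, and with the last letter of the sample codes fitted as a random block the adjusted p was 0.0598. The gene itself differed by 0.01, and its 15 other tested probe sets by −0.41 to 0.68 relative to the gene. The background was mixed between strains, and whether the embryos carried different strain alleles under this probe set was not tested.

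Sf3b3 had 3 called probe sets of 29, and they did not share a direction. Probe set 4892505 had 8.01, 7.67, 8.24 and 7.70 in Frasier arrays, against 6.61, 6.57, 7.05 and 6.01 in wild-type arrays. It was the highest relative to the gene, with a usage difference of 1.16 ± 0.178 (SE, adjusted p = 0.0304), and rose in level too (1.35, adjusted p = 0.0169). Its wild-type mean of 6.56 lay under the filter of 6.81, so it entered the usage test through its Frasier arrays, and this call is given as a description. Without the filter the usage difference was 1.17 (adjusted p = 0.0313). Probe set 4982617 was lower relative to the gene, at −0.65 (adjusted p = 0.0196), with 12.50, 12.34, 12.35 and 12.43 in Frasier arrays, against 12.85, 12.91, 12.98 and 12.75 in wild-type arrays. Probe set 5426105 differed by −0.73 (adjusted p = 0.0290), with 11.00, 10.74, 10.84 and 10.76 in Frasier arrays, against 11.34, 11.41, 11.69 and 11.10 in wild-type arrays. In each of the 3 the genotypes did not overlap. Leaving out 1 array at a time, the calls were kept in 2, 3 and 2 of 8 fits, in the order given.

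In Srsf1, probe set 4403598 had 9.46, 9.67, 9.75 and 9.61 in Frasier arrays, against 10.27, 10.33, 10.13 and 9.95 in wild-type arrays. All Frasier values were lower, and the usage difference was −0.56 ± 0.0974 (SE, adjusted p = 0.0443), a call kept in 1 of 8 fits without an array and lost without the filter on dim probe sets (adjusted p = 0.0548). In level this probe set was not called (−0.55, adjusted p = 0.0653). The files give no exon for these probe sets, so the part of the transcript they cover is not known here.

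**Figure D5:**
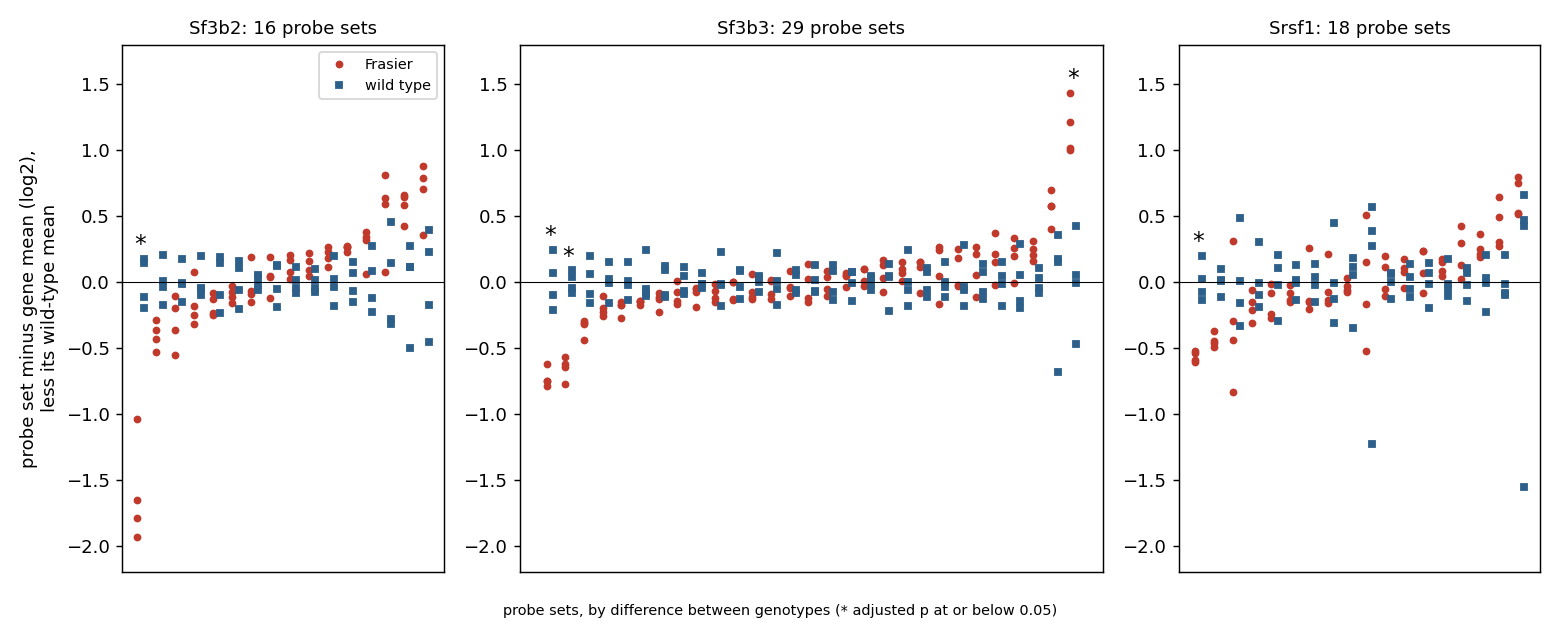
Probe set signal less the mean of its gene in each array (log2), shown less its wild-type mean, for the tested probe sets of Sf3b2, Sf3b3 and Srsf1, Frasier arrays left of wild-type arrays, with a star at an adjusted p at or below 0.05. In Sf3b2 1 probe set lies far below 0 in all 4 Frasier arrays, and in Sf3b3 2 starred probe sets lie below 0 and 1 above.

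The rest of the splicing machinery was described in the same way. Of 85 further genes (snRNP and core spliceosome, SR kinases and matrix proteins, other hnRNPs, and the m6A methyltransferase complex to which Wtap belongs), 77 had a cluster, 61 were positive, against 56.6% of all genes, and 0 were called, against 1.45%. At an unadjusted p under 0.05 there were 7, all higher, against 16.6% of all genes. Their median was 0.09. Wild type replicate 4 was the lowest array for 53 of the 77, and without it 51 were positive and the median was 0.03. The 4 of smallest p were Srsf12 (0.39, adjusted p = 0.196), an SR protein, Phf5a (0.40, adjusted p = 0.209), a small subunit of SF3b, Cbll1 (0.37, adjusted p = 0.210), a partner of Wtap in the methylating complex, and Plrg1 (0.33, adjusted p = 0.245), of the Prp19 complex. In usage 5 of their 981 tested probe sets were called (0.51%), near the 0.513% of all tested probe sets, so this count says nothing particular to these genes. They were 1 each in Ddx23 (−0.83), Srpk2 (−0.62), Clk1 (0.89), Rbm5 (−0.76) and Virma (−0.57). Without the filter on dim probe sets, Ddx23 (adjusted p = 0.0508), Srpk2 (0.0636) and Virma (0.0624) lost the call. Clk1 (0.0486) and Rbm5 (0.0267) kept it. The Ddx23 probe set, with a Frasier mean of 6.50, passed the filter through its wild-type arrays. Clk1 and Srpk2 encode kinases of SR proteins.

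Among 20 genes with exons known to be steered by such regulators, 1 was called at the gene level, against 1.45% of all genes. Cd44, a surface receptor whose variable exons are included by ESRP1 in human and mouse cell lines, had 7.16, 7.53, 7.51 and 7.42 in Frasier arrays, against 6.50, 6.49, 6.66 and 6.47 in wild-type arrays (0.87 ± 0.121 SE, 1.83-fold, adjusted p = 0.0146). The genotypes were far apart. The next by p, all without a call, were Vegfa (−0.47, adjusted p = 0.0965), the podocyte growth factor, Pkm (0.37, adjusted p = 0.279), a glycolytic enzyme with exons under PTB control, and Actn4 (−0.21, adjusted p = 0.400), a podocyte actinin.

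In usage 4 of the 413 tested probe sets of these genes were called (0.969%), against the 0.513% given above. Of the 4, 1 passed the filter through 1 genotype alone. The genes were also listed with earlier results of these data known, so the share is a description. In Cd44, probe set 4964816 had 8.17, 9.55, 9.22 and 9.00 in Frasier arrays, against 6.24, 6.03, 6.79 and 5.12 in wild-type arrays, and was higher relative to its gene by 1.41 ± 0.235 (SE, adjusted p = 0.0408). Its wild-type mean of 6.04 lay under the filter, so it too entered the test through its Frasier arrays and is a description. Without the filter the value was 1.95 (adjusted p = 0.0309). The other calls were higher in Arhgef11 (0.66, adjusted p = 0.0369, and 0.0508 without the filter) and Magi1 (0.69, adjusted p = 0.0432) and lower in Vegfa (−0.89, adjusted p = 0.0252). Arhgef11 and Magi1 are known in epithelial cell lines to hold exons under ESRP control, but whether the called probe sets cover those exons is not known here.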

How the data were processed

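RNA of glomeruli was measured on 8 exon arrays, 4 of Frasier and 4 of wild-type embryos, each summarised at the gene and the exon level. The authors deposited log2 values made with RMA (background correction, quantile normalization and summary of probes) and Partek on the mouse build mm9, as the submitters' processing notes list. Their versions are not given in the labels, and the log base was inferred from the range of values. RMA draws dim probes together, so small signals understate differences, and quantile normalization can hide a change in total RNA. Array number limits the precision.

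Symbols came from the platform annotation, updated through a RefSeq table of GRCm38.p6 used for names alone: 20707 clusters and 192914 probe sets had 1 symbol. Other rows entered the tests without a name. Clusters were named through the annotation alone, and their positions were not checked against the gene. Differences were fitted with limma 3.58.1 in R 4.3.3 (lmFit, eBayes, two-sided, Benjamini-Hochberg over all rows, threshold 0.05). Each step was tested on simulated data. P-values measure the spread between these samples. The members and gene lists were chosen with earlier results of these data known. The text names Wtap, U2af2 and Rbm4, members called at the gene level or in usage, the 2 of smallest p in each role group, and the 2 highest and 2 lowest in signal, which only chose names and compares no levels. From the other splicing genes and the target genes it names those called and the 4 of smallest p. Further probe sets, clusters and genes were named after their values were seen. Alternatives (replicate block, letter block, trend and robust options, array weights, other scaling and filters, and each array left out) are given in the closing section.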

Additional observations from a re-analysis of the deposited data

Results flagged for a closer look

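In 6 of 62 groups of 4 values (16 factors at the gene level and 15 probe sets, in each genotype), 1 array lay far from the other 3 by Dixon's test, which flags about 1 in 20 groups by chance. Of these 6, 3 were wild type replicate 4, the lowest of its group for Srsf10 (7.84), Srsf5 (9.71) and U2af2 (8.52). Frasier replicate 1 was the lowest of its group for Hnrnpf (10.06). At Esrp1 probe set 5183951 Frasier replicate 4 was the lowest (10.03), and at Esrp1 probe set 4995012 wild type replicate 3 was the highest (5.72). The cause of these values was not tested.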

How the results depend on the processing

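The gene-level count of called factors was 0 with all arrays and in 8 fits that left out 1 array each (0 to 0). It was 1 (Esrp1) with the mean of probe sets (11.4% of all genes called) and with 1-symbol rows alone (6.8% of rows). At the exon level 12 probe sets were called, where the same fit called 2.67% of all its rows. With array weights there were 19 (4.1% of all rows), and without dim rows 19 (6.29%). With 1-symbol rows alone there were 23 (6.33%), and with limma's trend and robust options 37 (4.49%). With the last letter of the sample codes as a random block there were 3 (0.754%). The share of all rows called thus moved with the fit too. Leaving out 1 array gave 2 to 15: 2, 3, 2 and 5 without Frasier replicates 1 to 4, and 5, 2, 15 and 9 without wild type replicates 1 to 4. In these fits 0.936% to 2.64% of all probe sets were called. In usage 5 were called, where 0.513% of all tested probe sets were. There were 9 with array weights (1.49% of all), 25 with diffSplice (3.16%) and 2 with the gene's median as the centre (0.233%). With the letter block there were 0 (0.042% of all), and Sf3b2 probe set 4821640 had an adjusted p of 0.0598. Leaving out 1 array gave 1 to 8 (0.063% to 1.52% of all). The letter is not explained. It is C for wild type replicates 1 to 3, d for wild type replicate 4, a for Frasier replicate 1 and e for Frasier replicates 2 to 4. Each letter occurs in 1 genotype, so between genotypes what it marks cannot be told apart from genotype. Within genotypes, the arrays with d and a had the lowest median deviations of the factors, −0.25 and −0.13. Whether the letter bears on those deviations, and the cause of the changes in the counts, was not tested.

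The replicate numbers only name samples: same-numbered deviations correlated at −0.005, 0.069, 0.263 and 0.204, so they were not taken as pairs. With the replicate number as a block, 0 factors, 11 probe sets and 2 usage values were called. Over all rows this fit called 0.198% of clusters, 2.09% of probe sets and 0.0894% of usage values.

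Uncalled differences near 0 changed sign. Without 1 array, Wtap ran from −0.22 (without wild type replicate 4) to 0.07 (positive without Frasier replicate 1 or wild type replicate 2 or 3), Sf3b2 from −0.03 to 0.05 (negative without Frasier replicate 3 or wild type replicate 4), Srsf1 from −0.03 to 0.06 and Sf3b1 from −0.00 to 0.14 (negative without wild type replicate 4). With array weights Sf3b2 was −0.01 and Srsf1 −0.00, and Hnrnpf was 0.12 with the mean of probe sets, of which Hnrnpf had 1.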
